A study of Mus musculus with 26 samples.

Results

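The effect of losing Nkapl was set against the effect of a second Nkapl allele, called TGdel, in whole mouse testis at postnatal day 21. The libraries were taken by the heading of their count column, with repeated columns read once, which gave 10 of the 23 distinct libraries of the series. They are 2 Nkapl knockout (KO) libraries with 3 wild-type (WT) libraries of the Nkapl set, and 3 libraries of Nkapl TGdel/TGdel mice with 2 WT libraries of the TGdel set. All mice are labelled C57BL/6, and the genotype of the TGdel mice is entered as TGdelete. A frameshift of NKAPL is named in the title of the series, but neither the position of the TGdel deletion nor the deleted part of the knockout is given in the sources used here. Nothing says which testes came from littermates, so the p-values below measure the spread between these libraries. The comparison asks how far the TGdel allele matches the knockout, through the knockout effect minus the TGdel effect, each taken against the WT of its own set.

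NKAPL is a germ cell protein that resembles NKAP, a widely expressed nuclear protein with roles in transcription and splicing. In mice, spermatocytes pass through a long meiotic prophase, divide and become haploid round spermatids, which then build the acrosome, the tail and the condensed sperm nucleus. In the first wave of spermatogenesis the earliest round spermatids form at about the age sampled here. Many genes for sperm structures are switched on at the end of meiosis and in round spermatids, so they are low in a testis whose germ cells stop before that point.

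For 3 of the 10 libraries the file record and the column heading name different groups. By heading they are WT 3 of the Nkapl set, WT 2 of the TGdel set and TGdel 3, and by record they are a knockout, a TGdel and a WT library of the TGdel set. Counts over all genes and over each gene list are also given without them, as are the calls of described genes that this changes, which leaves 2 KO against 2 WT libraries and 2 TGdel libraries against 1 WT library. That lone WT library is then assumed to vary like the other groups. Depth was 20120729 to 25514132 total counts per library in the Nkapl set and 16469667 to 17822056 in the TGdel set. The 45S ribosomal RNA precursor Rn45s took 5.53% and 5.29% of counts in KO libraries, against 3.96% to 3.97% in their WT libraries, and 0.0598% to 0.497% in TGdel libraries, against 0.0689% and 0.0713% in theirs. Its part in the results was not tested beyond leaving it out, which moved no count of called genes by more than 1.5 times.

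Nkapl itself lies on chromosome 13 at 21467047 to 21468501 (GRCm38). It measured 63.8 and 60.7 CPM (counts scaled to a common library total, by trimmed mean of M-values) in KO libraries, against 72.5, 77.2 and 77.4 CPM in WT libraries of the Nkapl set. It measured 107, 118 and 126 CPM in TGdel libraries, against 99.7 and 103 CPM in the WT libraries of that set. The RNA of the gene was thus present under both alleles, below WT in both KO libraries and above WT in all 3 TGdel libraries. The log2 fold change was -0.28 ± 0.07 (SE) in KO (adjusted p = 0.00784) and 0.21 ± 0.07 in TGdel (adjusted p = 0.0853). The difference of effects was -0.49 with a 95% interval of -0.71 to -0.28 (adjusted p = 0.0120, edgeR quasi-likelihood test with Benjamini-Hochberg adjustment, as for every adjusted p below), and without the 3 disputed libraries it was -0.55 (adjusted p = 0.0558). Sox30, a transcription factor of spermatids, measured 96.9 and 99.3 CPM in KO libraries, against 94.1 to 98.2 CPM in WT libraries. It measured 48.6, 63.8 and 55.5 CPM in TGdel libraries, against 53.8 and 43.2 CPM in WT libraries, and it was called in neither comparison.

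The genes lost in the knockout were also lower in TGdel testis, but to a smaller extent and to a different extent in each library. Genes lower in KO by a log2 of at least 1 with the undisputed libraries of the Nkapl set numbered 1349, and neither the TGdel set nor the third WT library took part in their choice, so the values of the KO libraries and of WT 1 and WT 2 are a description. Together they summed to 4900 and 4520 CPM in KO libraries, against 16956, 14801 and 15727 CPM in the WT libraries of the Nkapl set. The same genes summed to 6916, 8341 and 10177 CPM in TGdel libraries, against 15939 and 12981 CPM in their WT libraries. Every TGdel library thus lay above both KO libraries and below all 5 WT libraries. The disputed TGdel 3 was the highest of the TGdel libraries and the disputed WT 2 the lowest of the WT libraries. The disputed WT 3 of the Nkapl set lay between the other WT libraries of its set. Counts of whole testis cannot tell fewer cells of a type from less RNA per cell, here or in any result below.

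**Figure D1:**
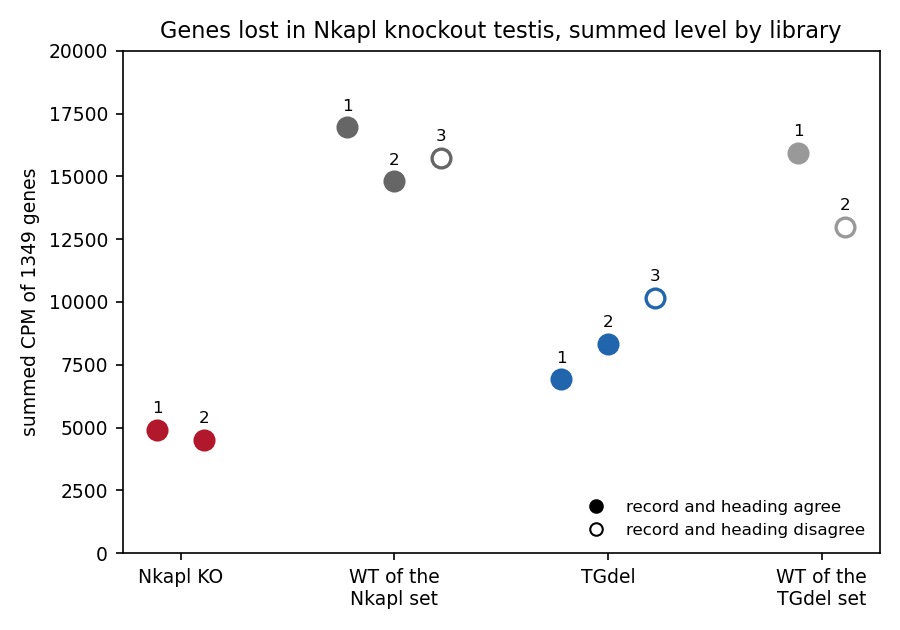
Summed level of 1349 genes lower in Nkapl KO testis, in CPM, for each library (numbered points, by group; open points are libraries whose record and heading disagree). The 3 TGdel libraries, at 6916 to 10177 CPM, sit between the KO libraries and the WT libraries of both sets.

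In 1 fit of the 10 libraries, 16930 genes were tested. In KO testis 3940 genes (23.3%) were higher and 2777 (16.4%) lower than in WT, and with another scaling (DESeq2's size factors in edgeR) 2533 were higher and 3056 lower. Leaving out the 3 disputed libraries gave 978 higher (5.62%) and 3190 lower (18.3%) in KO, and 232 higher (1.33%) and 782 lower (4.49%) in TGdel. In TGdel testis 613 genes (3.62%) were higher and 874 (5.16%) lower than in WT. These 1487 TGdel calls rest on a spread estimated from both sets together. They became 1531 with DESeq2 and 219 with the replicate number as a block within set. The median of all genes lay at a log2 fold change of 0.12 in KO and 0.01 in TGdel, and small changes in KO are to be read against that shift. The direction of the smallest KO rises depends on it, since the median was 0.07 with the other scaling and 0.01 without the 3 disputed libraries. Genes lower under both alleles numbered 734, which is 84.0% of those lower in TGdel and 26.4% of those lower in KO. Genes higher under both numbered 292, which is 47.6% of those higher in TGdel and 7.41% of those higher in KO, and 22 genes were called in opposite directions. With the 3 disputed libraries left out 734 genes were lower and 54 higher under both. Genes called the same way under both fell in number to 158 without WT 1 of the TGdel set, 654 without KO 1, 626 without KO 2 and 617 without WT 3 of the Nkapl set.

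The difference of effects was negative and called for 1179 genes (6.96%) and positive and called for 818 (4.83%), or 1459 and 424 with the other scaling. Of the 1179 genes, 831 were lower in KO with no call in TGdel, and 228 were lower under both alleles but further down in KO. Of the 818 genes, 744 were higher in KO with no call in TGdel, and 33 were lower in TGdel with no call in KO. The negative differences were the larger ones, with a median of -0.88 and 560 genes past a log2 of 1, against a median of 0.46 and 38 genes for the positive ones. Without the 3 disputed libraries 119 genes (0.683%) were called negative and 4 (0.023%) positive, 121 of these 123 were among the 1997 above, and all 1997 kept their direction. The 4 were Arl15, Junb, Mark4 and Sik1, of which all but Arl15 are named after their values were seen. The count of 1997 depends on single libraries. It was 19 without KO 2, 588 without KO 1, 855, 1125 and 1196 without WT 3, WT 1 and WT 2 of the Nkapl set, 964 without WT 2 of the TGdel set and 3313 without TGdel 1.

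**Figure D2:**
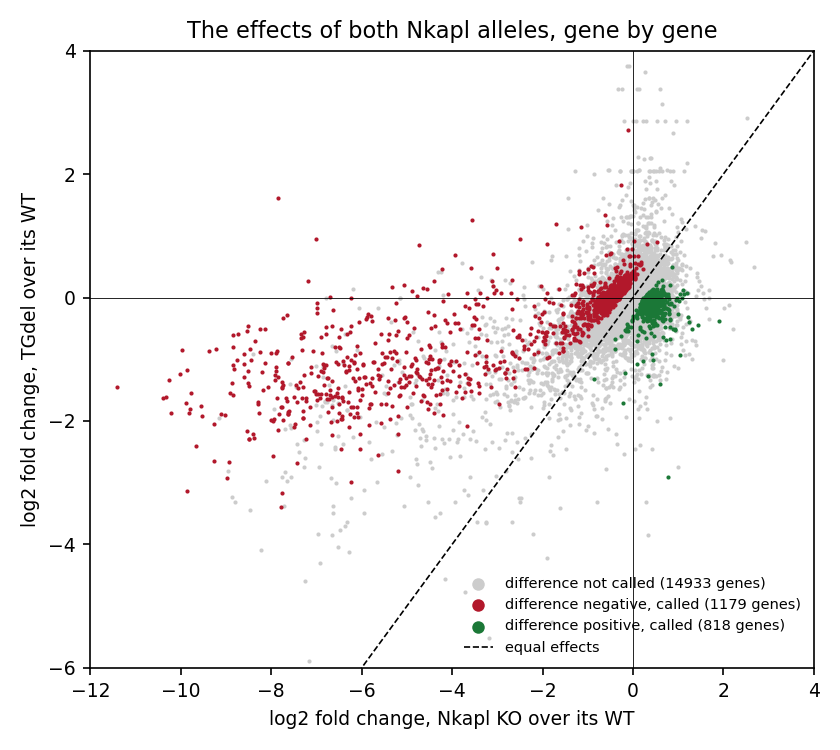
Log2 fold change in Nkapl KO testis (horizontal axis) and in TGdel testis (vertical axis), each over the WT of its set, for 16930 genes (4 lie outside the axes). Genes far down in KO spread to the left of the line of equal effects, at a median log2 fold change of -3.11 in KO and -1.04 in TGdel.

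Genes lower in KO by a log2 of at least 1 numbered 1295 (7.65%). Their median log2 fold change was -3.11 in KO, which leaves 11.6% of the WT level, and -1.04 in TGdel, which leaves 48.6%. No count was found in either KO library for 155 of them, and with these at the bound that 3 counts allow, the KO median was -2.996. In TGdel 1216 of them (93.9%) were below 0, against 47.1% of all genes, and 469 (36.2%) were called lower. The single gene of the set called higher in TGdel was Edar, named after its values were seen. For 1249 of the 1295 the fall was smaller in TGdel than in KO, and the difference was called for 603, each time with the larger fall in KO. These genes were chosen by their fall in KO, so these last counts are a description. Leaving those 3 libraries out, the median fall in TGdel was -1.54, which leaves 34.4% of the WT level. Few genes rose in KO by a log2 of at least 1. There were 47, at a median of 0.06 in TGdel, where 2 of them were called higher (Itgax and Mir1947, named after their values were seen).

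Genes that fell further in KO were also lower in TGdel, by a smaller step. The 460 genes with a KO log2 fold change of -1 to -2 had a median of -0.64 in TGdel, and the 304 genes at -2 to -4 a median of -1.13. The 234 genes at -4 to -6 had a median of -1.29 in TGdel, and the 297 genes below -6, at a KO median of -7.11 (-6.11 with the 148 genes without a KO count at their bound), a median of -1.59. Called lower in TGdel were 40.4% of the first class, 36.8%, 30.8% and 33.3% of the others in turn.

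Single TGdel libraries matched the knockout to different degrees. Across the 16930 genes the log2 fold changes of KO and TGdel had a Pearson r of 0.62 and a Spearman rho of 0.33, with no library in common. By single library, each set against the same 2 WT libraries, Pearson r was 0.76 for TGdel 1, 0.61 for TGdel 2 and 0.31 for TGdel 3. The median log2 difference from WT of the genes lower in KO was -1.09, -0.75 and -0.43 in these libraries, on a scale with 0.5 CPM added. For 827 of the 1295 genes (63.9%) TGdel 1 was the lowest and TGdel 3 the highest of the TGdel libraries, an order seen in 18.5% of all genes. TGdel 1 also had the highest share of Rn45s, 0.497% against 0.0666% in TGdel 2 and 0.0598% in TGdel 3, and the part of this in the spread was not tested.

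The widest gaps between the alleles were at genes of spermatids and sperm. Gapdhs (chromosome 7, 30729779 to 30744791) encodes the glycolytic glyceraldehyde-3-phosphate dehydrogenase of the sperm tail. It measured 0.0510 and 0 CPM in KO libraries, against 31.0, 20.5 and 23.7 CPM in WT libraries. In TGdel libraries it measured 1.93, 7.10 and 13.2 CPM, against 25.7 and 17.6 CPM in WT libraries. It was thus down to 1 count in KO and lower but clearly present in every TGdel library, with no overlap of groups in either set. With 1 count the fold is uncertain, 1119 with a counting interval of 201 to 44218, against 2.90-fold in TGdel. Smcp (chromosome 3, 92583866 to 92589073), a protein of the sperm mitochondrial capsule, was at 0 counts in both KO libraries, against 20.7, 13.1 and 16.8 CPM in WT libraries. In TGdel libraries it measured 1.02, 6.53 and 10.5 CPM, against 19.7 and 13.2 CPM in WT libraries. Against the floor of 3 counts over both KO libraries (0.0671 CPM) it was at least 251-fold lower in KO, against 2.70-fold in TGdel.

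The other genes with the most negative differences had the same form. Odf3, of the outer dense fibres, Galntl5, a glycosyltransferase-like protein of the acrosome region, Adam26a, a member of the ADAM family of sperm surface proteins, Txndc8, a thioredoxin of spermatids, Spata45 and Lrrc72 had no count in KO. Their WT libraries held 4.08 to 9.54 CPM in the Nkapl set. They were at least 85.6-fold (Lrrc72) to 124-fold (Adam26a) lower in KO and 2.25-fold (Lrrc72) to 3.27-fold (Txndc8) lower in TGdel. In each of these 6 genes TGdel 1 was the lowest and TGdel 3 the highest of the TGdel libraries. Of all 8, only Gapdhs and Txndc8 were called lower in TGdel (adjusted p = 0.0467 and 0.0458). The 8 were chosen among genes whose difference of effects was called (adjusted p of 0.00709 to 0.0140), so that call is no further result. Without the 3 disputed libraries 6 of the 8 were called lower in TGdel, namely Galntl5, Spata45, Adam26a, Odf3, Lrrc72 and Gapdhs (adjusted p of 0.00644 to 0.0450), and Smcp and Txndc8 were not (0.0659 and 0.0774). In that fit the difference was still called for Spata45, Odf3, Lrrc72 and Gapdhs (adjusted p of 0.0408 to 0.0492) and not for Smcp, Galntl5, Adam26a and Txndc8 (0.0641 to 0.0954).

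Another group of genes was deeply down under both alleles. Actl11, an actin-like gene on chromosome 9 (107928469 to 107932461), measured 0.153 and 0 CPM in KO libraries, against 8.71, 8.46 and 9.79 CPM in WT libraries. It measured 0, 0.398 and 0.346 CPM in TGdel libraries, against 6.06 and 4.08 CPM in WT libraries. All KO and TGdel libraries were thus near 0, at 134-fold (counting interval 45.6 to 651) and 20.1-fold below WT, and the difference of effects was not called (adjusted p = 0.132). Atp1a4, the sodium pump subunit of sperm, measured 0.204 and 0.120 CPM in KO libraries, against 9.37 to 14.5 CPM in WT libraries. It measured 0.301, 1.08 and 2.48 CPM in TGdel libraries, against 12.8 and 7.99 CPM in WT libraries. It was 77.9-fold lower in KO and 7.98-fold lower in TGdel (adjusted p = 2.65e-05 and 0.00160), and this difference was called (adjusted p = 0.0419). Cpa5, Spert, Adam24, Scp2d1, Antxrl and Morn3 were 6.29-fold to 10.6-fold lower in TGdel, and their KO counts ranged from 0 to 2. The difference was called for all of these but Scp2d1 (adjusted p = 0.0804), so most of the genes that TGdel shares with the knockout most deeply were still further down in KO. With the disputed libraries left out it was called for none of the 8, at an adjusted p of 0.0710 for Adam24 and above for the rest.

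A few genes changed by nearly the same amount under both alleles, with little spread between libraries. Dnah6, a dynein heavy chain of cilia and tails (chromosome 6, 73017603 to 73222227), measured 213 and 205 CPM in KO libraries, against 345, 397 and 372 CPM in WT libraries. It measured 99.1, 98.8 and 100.5 CPM in TGdel libraries, against 169 and 154 CPM in WT libraries. The log2 fold change was -0.83 ± 0.07 in KO and -0.70 ± 0.07 in TGdel, and the 95% interval of the difference ran from -0.33 to 0.08. Top3a, a topoisomerase that separates joined DNA strands (chromosome 11, 60738209 to 60777365), rose under both alleles. It measured 139 and 134 CPM in KO libraries, against 77.9, 82.9 and 77.4 CPM in WT libraries, and 106, 95.1 and 102 CPM in TGdel libraries, against 64.7 and 62.8 CPM in WT libraries. Its log2 fold change was 0.78 ± 0.06 in KO and 0.66 ± 0.06 in TGdel, and the interval of the difference ran from -0.06 to 0.31. Without the disputed libraries the differences were -0.16 for Dnah6 and 0.02 for Top3a.

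Rfx1, a transcription factor that binds the RFX motif, was at 24.0 and 24.1 CPM in KO libraries, against 47.6 to 49.9 CPM in WT libraries, and at 13.7, 15.9 and 18.0 CPM in TGdel libraries, against 30.9 and 23.1 CPM in WT libraries. Its log2 fold changes were -1.02 in KO and -0.76 in TGdel, with an interval of the difference of -0.63 to 0.11. Plk1, a kinase of the meiotic divisions, had -0.88 in KO and -0.63 in TGdel, with an interval of -0.51 to 0.00. Eaf1, a partner of elongation factor ELL, had 0.39 in KO and 0.30 in TGdel, with an interval of -0.09 to 0.26. The intervals of all 5 genes lie within 1 log2 unit of no difference. Over the 1342 genes changed in KO by a log2 of at least 1, that held for 84 (6.26%), while 487 (36.3%) lay wholly outside it and 771 (57.5%) were too imprecise to place. The 84 became 53 without KO 2 and 47 without WT 1 of the TGdel set.

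**Figure D3:**
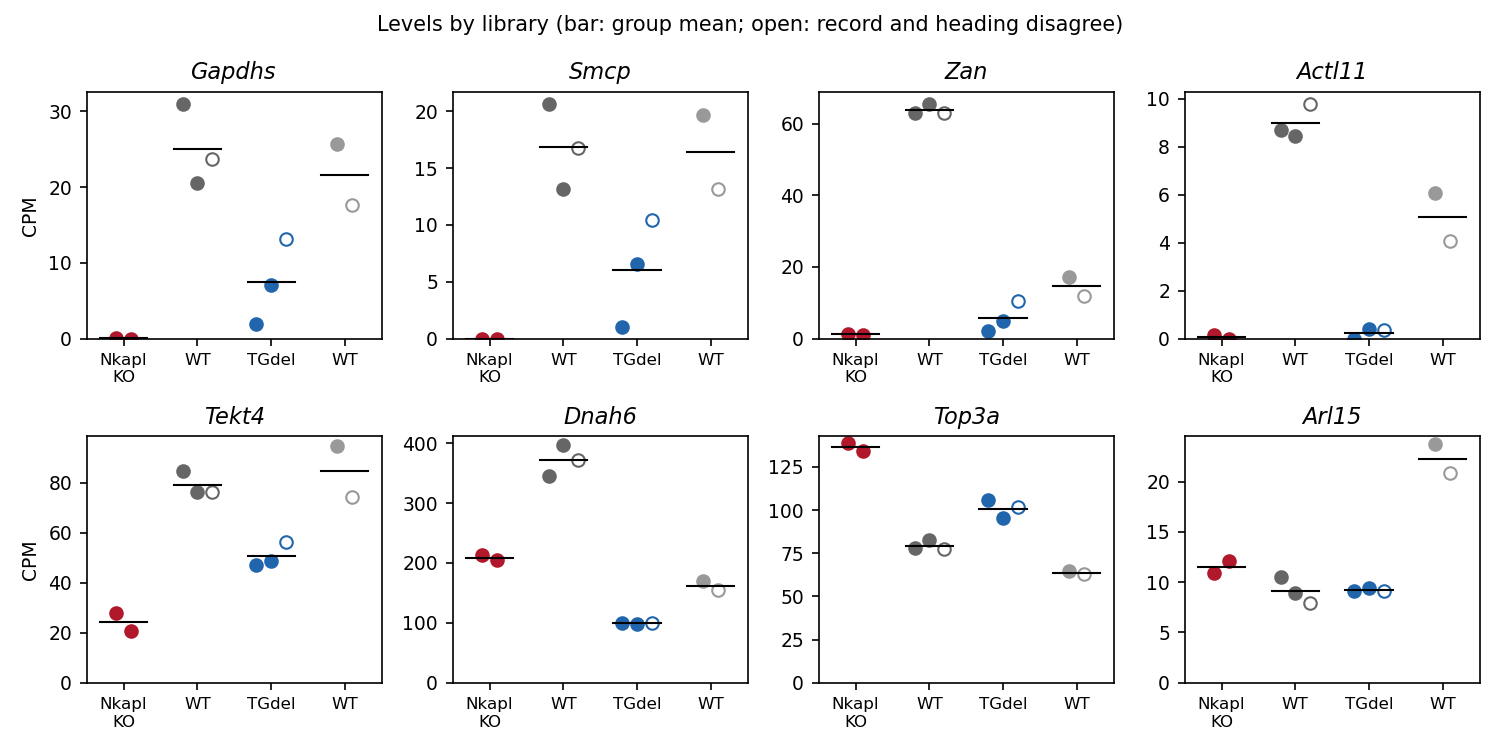
CPM of 8 genes in each library (points; bars are group means; open points are libraries whose record and heading disagree), with the TGdel set right of the Nkapl set in each panel. Gapdhs and Smcp are at or near 0 in KO and graded in TGdel, Dnah6 and Top3a move alike, and Arl15 is high in the WT of the TGdel set alone.

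Zan (zonadhesin, a sperm protein that binds the egg coat) and Dnah6 also show that the WT libraries of the sets differ in level. Zan was at 62.9, 65.7 and 63.0 CPM in the WT libraries of the Nkapl set and at 17.2 and 11.95 CPM in those of the TGdel set. In KO libraries it was at 1.33 and 1.04 CPM, and in TGdel libraries at 2.17, 4.999 and 10.4 CPM. The log2 fold change was -5.77 in KO and -1.31 in TGdel, a difference of -4.46 (adjusted p = 0.00476; -3.64 and 0.0353 without the disputed libraries).

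On the other side, the 8 most positive differences were smaller, from 1.28 to 1.63. Arl15, a small GTPase of the ARF family (chromosome 13, 113794506 to 114157462), is on the chromosome of Nkapl, far from it. It measured 10.9 and 12.1 CPM in KO libraries, against 10.6, 8.89 and 7.88 CPM in WT libraries. It measured 9.09, 9.43 and 9.12 CPM in TGdel libraries, against 23.7 and 20.8 CPM in WT libraries. All libraries of the Nkapl set and of TGdel were thus at 7.88 to 12.1 CPM, and the WT libraries of the TGdel set stood apart. Its log2 fold change was 0.34 in KO (adjusted p = 0.0545) and -1.27 in TGdel (adjusted p = 0.000157), a difference of 1.61 with an interval of 1.22 to 2.01 (adjusted p = 0.00233). It was still called without the disputed libraries (1.49, adjusted p = 0.0353).

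Dlk1, a membrane protein related to Notch ligands, measured 13.4 and 14.1 CPM in KO libraries, against 6.99, 8.76 and 7.76 CPM in WT libraries. It measured 4.996, 5.85 and 4.97 CPM in TGdel libraries, against 7.56 and 7.05 CPM in WT libraries. It rose in KO (log2 0.81), had -0.47 in TGdel without passing the test, and differed by 1.28 (adjusted p = 0.00554). Pappa, a metalloproteinase that cleaves binding proteins of insulin-like growth factors, measured 33.7 and 35.0 CPM in KO libraries, against 17.7 to 19.9 CPM in WT libraries. It measured 4.49 to 7.52 CPM in TGdel libraries, against 6.61 and 10.7 CPM in WT libraries, and differed by 1.41 (adjusted p = 0.0107). Necab1, H2-Q10, Tmem151b, Endog and Helt, at 0.902 to 12.1 CPM in single libraries, had differences of 1.63, 1.52, 1.49, 1.41 and 1.31. None of these genes but Arl15 was called in TGdel, and without the disputed libraries none but Arl15 kept a called difference.

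Another 6 genes were changed in KO by a log2 of at least 1 and chosen only if the interval of the difference excluded 0. Nearest to no change in TGdel among such genes were Acap1, Rslcan18 and Prom1, which fell, and Alkbh3os1, Prss12 and Shisa8, which rose. Prom1, a membrane glycoprotein, measured 24.7 and 18.9 CPM in KO libraries, against 48.0, 46.6 and 45.6 CPM in WT libraries. It measured 37.0, 37.0 and 44.0 CPM in TGdel libraries, against 45.7 and 35.7 CPM in WT libraries, so the TGdel libraries overlapped their WT and the KO libraries did not. The difference was -1.06 with an interval of -1.44 to -0.68 (adjusted p = 0.00711; 0.0525 without the disputed libraries). Alkbh3os1 lies antisense to Alkbh3, and as the strand setting of the counting is not given, reads of both cannot be told apart.

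By role, genes of the acrosome and of the tail sheath fell in KO almost throughout and in TGdel in part. Of all genes tested 16.4% were lower and 23.3% higher in KO, and 5.16% were lower and 3.62% higher in TGdel. Of 33 acrosome genes tested, 32 were lower in KO and 1 (Tex101) higher, at a median log2 fold change of -4.40. In TGdel 11 were lower and none higher, at a median of -1.34, and the difference was called negative for 26. Spam1, the hyaluronidase of the sperm head, was at -6.11 in KO and -1.78 in TGdel, and Zp3r, an acrosomal matrix protein, at -7.04 and -1.51. Zpbp2, which binds the zona pellucida, measured 87.4 and 74.7 CPM in KO libraries, against 168 to 175 CPM in WT libraries, and 180 to 210 CPM in TGdel libraries, against 267 and 254 CPM in WT libraries. Without the disputed libraries 20 acrosome genes were lower in TGdel, at a median of -2.11, and the difference was called for none. The TGdel calls rest on single libraries. Without WT 1 of the TGdel set no acrosome gene was called lower in TGdel, without TGdel 3 there were 22, and DESeq2 with all libraries called 4. The difference was called for none without KO 2 and for 4 without KO 1.

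Of 24 genes of the outer dense fibres, fibrous sheath and tektins, 23 were lower in KO (median -1.48) and 8 in TGdel (median -0.71). The shares of all genes tested were 16.4% and 5.16%, and 3.62% were higher in TGdel. Akap3 and Akap4, scaffold proteins of the fibrous sheath, were at -3.27 and -7.27 in KO. In TGdel Akap3 was lower at -1.25, and Akap4 was not called. Tekt4, a filament protein of the tail, measured 27.8 and 20.8 CPM in KO libraries, against 84.6, 76.5 and 76.2 CPM in WT libraries. It measured 47.0, 48.9 and 56.5 CPM in TGdel libraries, against 94.96 and 74.2 CPM in WT libraries, a log2 fold change of -1.71 in KO and -0.74 in TGdel. Of 42 axoneme and intraflagellar transport genes, 32 were lower in KO (median -0.34), and in TGdel 9 were lower and 2 (Ccdc39 and Cfap65) higher (median -0.04). The TGdel median of this list turned to 0.00 without TGdel 1. Without the disputed libraries 23 sheath genes and 34 axoneme genes were lower in KO, and 11 and 10 in TGdel with none higher, while the called differences became 1 instead of 16 and 3 instead of 10. Without WT 1 of the TGdel set 0 sheath genes and 2 axoneme genes were called lower in TGdel, and without KO 2 no difference of either list was called and 20 axoneme genes were lower in KO.

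Of 27 genes of sperm-egg fusion and zona binding, 20 were lower in KO (median -0.81), and in TGdel 7 were lower and Adam30 was higher (median -0.46). Over all genes tested 16.4% were lower in KO, and 5.16% were lower and 3.62% higher in TGdel. Izumo1, the sperm protein that binds the egg receptor Juno, was at -2.93 in KO and -1.31 in TGdel, both called. Of 20 sperm ion transport genes 15 were lower in KO, and in TGdel 7 were lower and Slc9b1 was higher. Catsper1, of the sperm calcium channel, measured 0.153 and 0.0797 CPM in KO libraries, against 15.8 to 20.8 CPM in WT libraries. It measured 0.722, 2.61 and 3.35 CPM in TGdel libraries, against 11.1 and 6.39 CPM in WT libraries, and the difference of -5.33 was called with all libraries (adjusted p = 0.00587) and without the disputed ones (adjusted p = 0.0498). Leaving those out, 22 fusion genes and 15 ion transport genes were lower in KO, and 9 and 7 in TGdel with none higher, while the called differences became 4 instead of 14 and 2 instead of 12. Without WT 1 of the TGdel set 1 gene of each list was called lower in TGdel, and without KO 2 no difference of either list was called.

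Of 21 genes that package the spermatid nucleus, 10 were lower and 6 higher in KO, and in TGdel 6 were lower and 1 (Setd2) higher. Over all genes tested 16.4% were lower and 23.3% higher in KO, and 5.16% and 3.62% in TGdel. The 6 rises in KO are thus near the share of all genes and no trait of this list. The genes that fell include Tnp1 and Prm2, whose proteins replace histones in spermatids. Tnp1 had 2 counts in KO and was 9.50-fold lower in TGdel, and Prm2 had no count in KO and was 14.3-fold lower in TGdel, and the difference was called for neither. The 6 that rose in KO include the germ cell histones Hist1h1t, Hist1h2aa and Hist1h2ba, at 0.25 to 0.41. Chd5, a chromatin remodeller of spermatids, measured 11.2 and 12.1 CPM in KO libraries, against 49.7 to 65.6 CPM in WT libraries, and 11.3, 17.0 and 21.7 CPM in TGdel libraries, against 46.8 and 38.4 CPM in WT libraries. Among 21 glycolysis genes, 12 were lower and 3 (Aldoc, Eno2 and Pkm) higher in KO, and 7 were lower and 1 (Ldhal6b) higher in TGdel. Leaving out the disputed libraries, 12 of 22 packaging genes were lower and 2 higher in KO, and 13 glycolysis genes were lower and 2 higher. In TGdel 5 packaging genes and 7 glycolysis genes were then lower. Without WT 1 of the TGdel set 1 packaging gene and no glycolysis gene was called lower in TGdel, and without KO 2 6 packaging genes were lower in KO.

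Of 21 actin-like and nuclear shaping genes, 18 were lower in KO (median -0.67), and in TGdel 6 were lower and Cntrob was higher (median -0.08). The shares of all genes tested were 16.4% lower and 23.3% higher in KO, and 5.16% lower and 3.62% higher in TGdel. Of 22 testis kinases and phosphatases, 10 were lower and 2 (Pskh1 and Stk31) higher in KO (median -0.19), and in TGdel Tssk2 and Tssk5 were lower and Cdkl4 and Ttbk2 higher (median -0.09). Tssk2, a kinase of spermatids, measured 0.255 and 0.0797 CPM in KO libraries, against 8.72 to 14.5 CPM in WT libraries. It measured 0.662, 3.58 and 5.95 CPM in TGdel libraries, against 15.7 and 10.4 CPM in WT libraries, and the difference of -4.25 was called (adjusted p = 0.0247; 0.156 without the disputed libraries). Leaving those out, 19 shaping genes and 14 kinases and phosphatases were lower in KO with none higher, and 7 and 3 were lower in TGdel. Without WT 1 of the TGdel set 1 shaping gene and no kinase or phosphatase was called lower in TGdel.

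**Figure D4:**
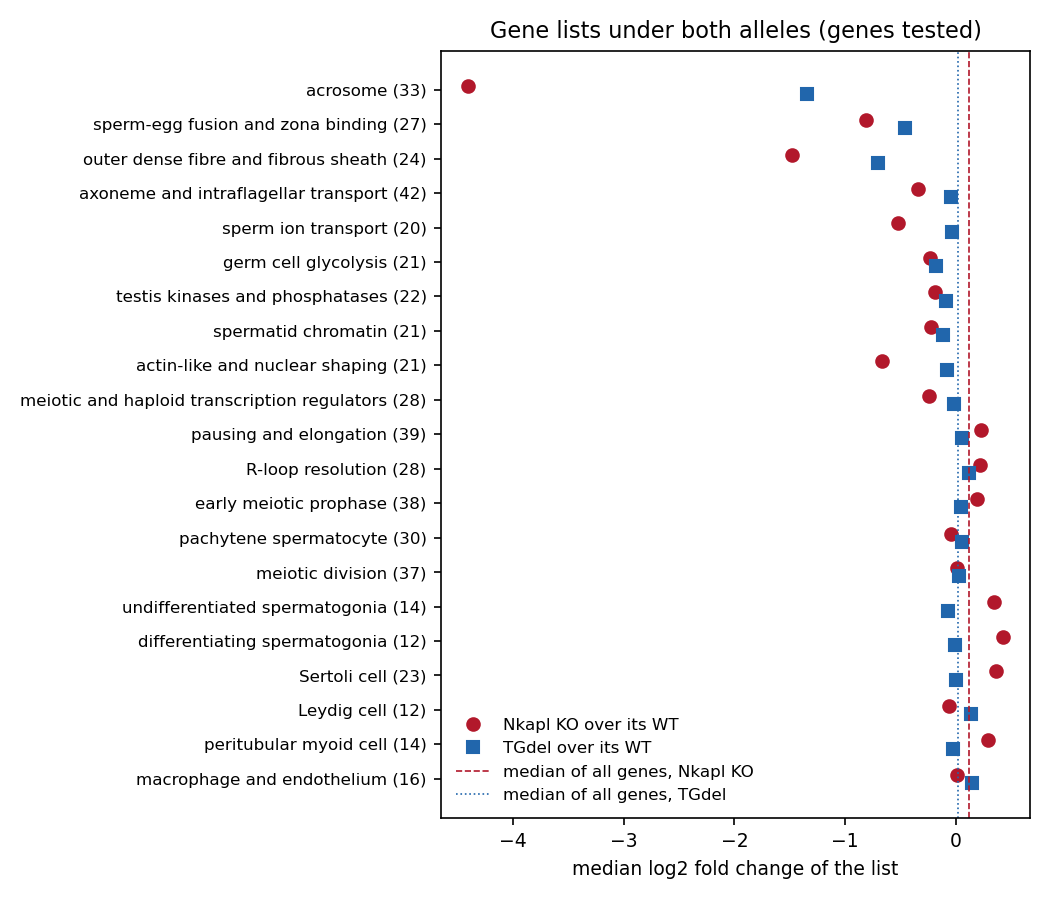
Median log2 fold change of each gene list in Nkapl KO testis (circles) and TGdel testis (squares), each over its WT, with the number of genes tested and the medians of all genes as vertical lines. Sperm structure lists lie further left in KO than in TGdel, with acrosome genes at -4.40 and -1.34.

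Genes of transcription moved in both directions. Of 28 meiotic and haploid transcription regulators, 14 were lower and 3 (Taf4b, Taf7l and Zbtb32) higher in KO. In TGdel 5 were lower (Fhl5, Kif17, Mterf2, Rfx1 and Zmynd15) and 3 higher (Crebrf, Rfx4 and Zbtb32). Crem, an activator of spermatid genes, fell in KO (-0.46) and was not called in TGdel, with a difference of -0.44 that was called (adjusted p = 0.0119; 0.0679 without the disputed libraries). The median of the regulators was -0.24 in KO and -0.02 in TGdel. Leaving out the disputed libraries, 15 of them were lower and none higher in KO, and 5 were lower and 1 higher in TGdel. Leaving out only WT 1 of the TGdel set, 1 regulator was lower and none higher in TGdel. Without KO 2, 9 regulators were lower in KO. Of 39 genes of promoter pausing and elongation, 22 were higher and 6 lower in KO (median 0.22), and 1 was higher (Eaf1) and 1 lower (Ell2) in TGdel (median 0.05). With the other scaling 16 were higher in KO, and without the disputed libraries 6 were higher and 7 lower. Eaf1 was then not called in TGdel (adjusted p = 0.0736). Of 28 genes that resolve R-loops, 15 were higher and 1 lower in KO, and in TGdel Top3a was among the 5 that were higher and Rnaseh2c was lower. With the other scaling 11 were higher in KO, and without the disputed libraries 6 were. Leaving out 1 library at a time gave 8 to 19 pausing genes and 7 to 14 R-loop genes higher in KO, and without WT 1 of the TGdel set 1 R-loop gene was higher in TGdel. Among all genes tested 23.3% were higher in KO and 3.62% in TGdel. The median difference of the pausing list was 0.14 with all libraries and -0.01 without the disputed ones, and that of the R-loop list 0.08 and -0.07. Over all genes tested it was 0.05 and -0.08, so its sign changed there too. The pausing list lay above the median of all genes both times, and the R-loop list lay close to it.

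Lists of earlier stages of meiosis had KO medians of -0.04 to 0.19, against 0.12 for all genes, and TGdel medians of 0.03 to 0.05, against 0.01. Of 37 genes of the meiotic divisions, 9 were lower and 4 higher in KO. In TGdel, 7 were lower, among them the cyclins Ccnb1 and Ccnb2, the kinases Cdk1 and Plk1 and the kinesin-like Cenpe, and Tpx2 was higher. Of 38 genes of early meiotic prophase, 12 were higher and 3 lower in KO, and in TGdel Mlh3 was higher and Rec8 lower. Of 30 pachytene genes, 12 were lower and 8 higher in KO, and Ccna1 was lower and Adad2 higher in TGdel. Among all genes tested 23.3% were higher and 16.4% lower in KO, and 3.62% higher and 5.16% lower in TGdel. The KO counts of these lists moved with the libraries and the scaling. Without the disputed libraries 3 prophase genes were higher and 4 lower in KO, 1 pachytene gene was higher and 13 lower, and no division gene was higher and 10 were lower. With the other scaling 7 prophase genes were higher and 4 lower in KO, and leaving out 1 library at a time gave 3 to 9 higher. Pachytene genes lower in KO numbered 5 without KO 2. Division genes lower in TGdel numbered 6 without the disputed libraries and 2 without WT 1 of that set. Pgk2, the glycolytic kinase of late spermatocytes, measured 65.3 and 49.96 CPM in KO libraries, against 130 to 147 CPM in WT libraries. It measured 127, 141 and 182 CPM in TGdel libraries, against 209 and 186 CPM in WT libraries, and differed by -0.89 (adjusted p = 0.0159; -0.74 and 0.0798 without the disputed libraries).

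With all libraries most markers of Sertoli cells and of spermatogonia were higher in KO, while markers of Leydig cells, macrophages and endothelium and the epididymis were mostly not called. Of 23 Sertoli cell markers 18 were higher in KO and none lower (median 0.36), and none was called in TGdel (median 0.00). The difference was called positive for 8 of them. Summed, the list held 3050 and 3171 CPM in KO libraries, against 2418 to 2513 CPM in WT libraries, and 3564 to 4080 CPM in TGdel libraries, against 3885 and 3898 CPM in WT libraries. Amh, the Sertoli cell hormone, measured 23.8 and 24.2 CPM in KO libraries, against 15.7 to 16.7 CPM in WT libraries, and 19.7 to 21.2 CPM in TGdel libraries, against 23.7 and 24.5 CPM in WT libraries. Its difference was 0.80 (adjusted p = 0.00476; 0.0742 without the disputed libraries). With the other scaling 14 Sertoli markers were higher in KO and 6 differed, and without the disputed libraries 11 were higher and none differed. Leaving out 1 library at a time gave 10 to 15 higher in KO, with no called difference without KO 2. Of the spermatogonial markers, 8 of 14 undifferentiated and 8 of 12 differentiating ones were higher in KO, against 23.3% of all genes. In each list 1 was lower in KO, against 16.4% of all genes, and the difference was called positive for 3 of each list. None was called in TGdel, where 3.62% of all genes were higher. Without the disputed libraries 5 of 16 and 5 of 12 were higher in KO, 1 undifferentiated marker was higher in TGdel, and no difference was called. In KO 1 of 12 Leydig markers (Nr5a1) and 1 of 16 macrophage and endothelial markers (Cdh5, adjusted p = 0.0361, and 0.188 without the disputed libraries) were higher, and of 14 myoid markers 4 were higher and 1 (Actg2) lower. In TGdel no Leydig marker was called, Mrc1 of the macrophages was higher and Actg2 lower. The epididymis list summed to 24.6 and 12.4 CPM in KO libraries, against 17.6 to 27.5 CPM in WT libraries. It summed to 11.0, 12.7 and 53.5 CPM in TGdel libraries, against 93.8 and 14.5 CPM in WT libraries, so TGdel 1 and WT 1 of that set held the most epididymal RNA. With all libraries no member of that list was called under either allele. Without TGdel 1, 7 of its 10 genes tested were called lower in TGdel (median -5.79) and 3 differences were called positive, and without WT 1 of that set the TGdel median turned to 2.46 with no call. Its part in the other results was not tested.

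**Figure D5:**
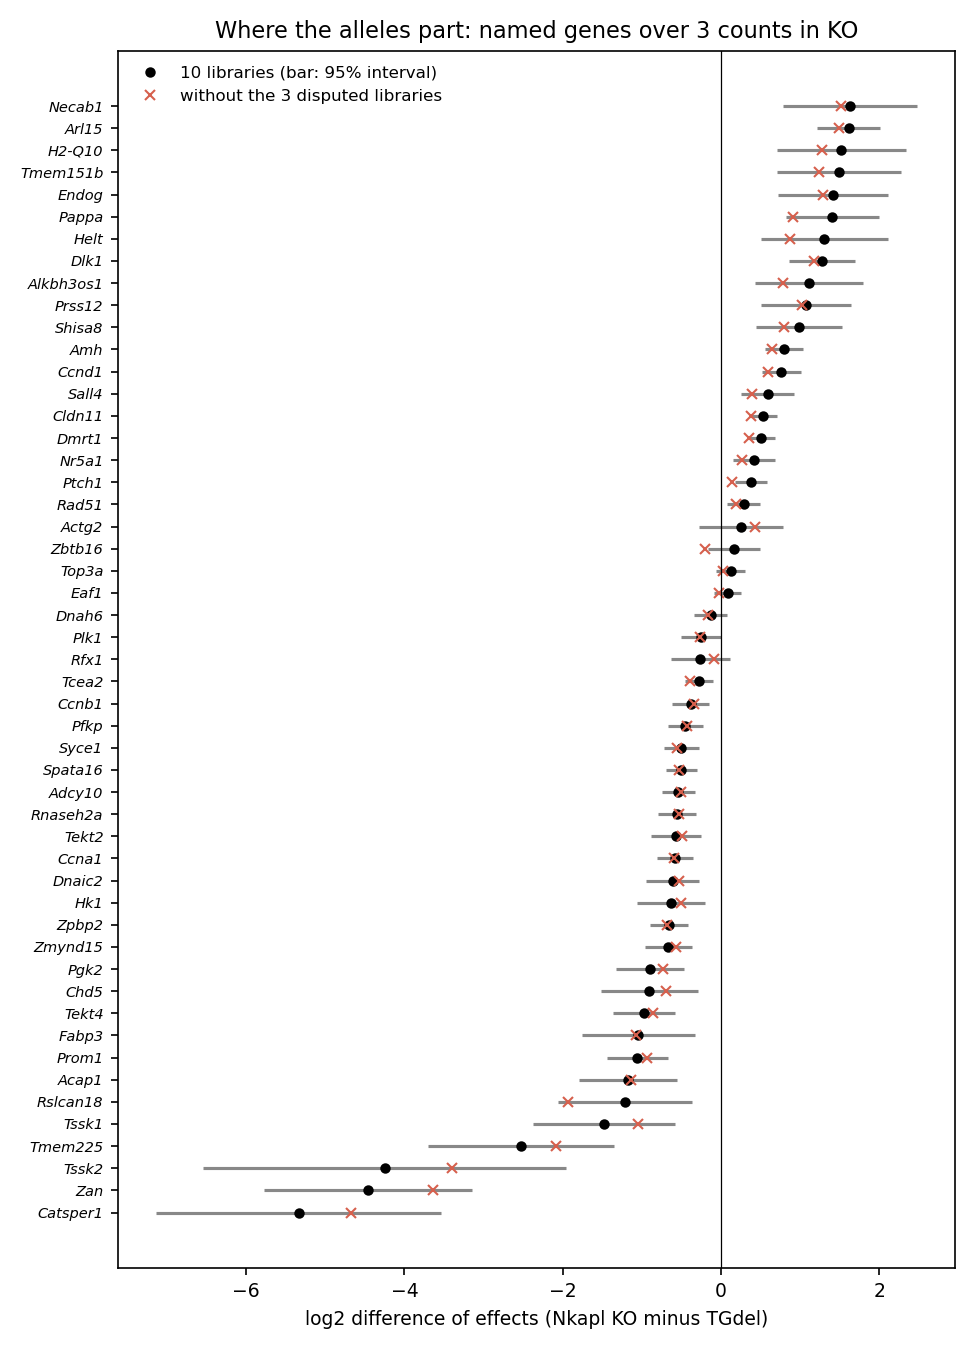
Log2 difference of effects (Nkapl KO minus TGdel) of named genes with over 3 counts in KO: points and bars are the value and its 95% interval with 10 libraries, crosses the value without the 3 disputed libraries. Most intervals of spermatid genes lie below 0 and those of Amh, Ccnd1 and Cldn11 above it, while those of Dnah6, Top3a and Eaf1 include 0.

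Promoter windows of RefSeq (250 bases before to 50 after the gene's start, GRCm38.p6) were searched on both strands for the letters of 4 motifs. Of the 74 named genes 52 have a window. The RFX half-site GTTGCC was held by 13.2% of the windows of all genes tested, by 20.5% of those of genes lower in KO by a log2 of at least 1, by 18.4% of those lower under both alleles and by 22.2% of those with a negative difference. For the SOX motif ACAATGG the shares were 2.57%, 7.80%, 5.83% and 6.01% in the same order. For the cAMP response element TGACGTCA they were 2.97%, 2.30%, 3.36% and 2.30%, and for the MYB motif AACNGTT 3.45%, 5.6%, 4.95% and 4.70%. Among the 52 windows of named genes 11 hold the RFX half-site, those of Shisa8 and Alkbh3os1, which rose in KO, among them, and those of Smcp, Gapdhs, Spata45 and Txndc8 do not. Shown, as examples with a match, are the windows of Odf3 and Lrrc72, which were at 0 in KO and graded in TGdel, of Tekt4 and Rfx1, lower under both, and of Dnah6, lower to nearly the same extent under both. Capitals mark matches to the 4 motifs, GGCAAC being the RFX half-site on the other strand, and in Rfx1 the MYB and RFX matches overlap in 1 run.
Odf3, chr7:140847666-140847965, plus strand: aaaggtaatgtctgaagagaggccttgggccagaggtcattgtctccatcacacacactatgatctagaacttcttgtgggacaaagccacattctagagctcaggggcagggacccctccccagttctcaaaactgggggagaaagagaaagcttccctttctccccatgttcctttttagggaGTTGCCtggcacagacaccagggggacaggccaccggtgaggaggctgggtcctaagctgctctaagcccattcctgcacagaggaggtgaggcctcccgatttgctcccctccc
Lrrc72, chr12:36253349-36253648, minus strand: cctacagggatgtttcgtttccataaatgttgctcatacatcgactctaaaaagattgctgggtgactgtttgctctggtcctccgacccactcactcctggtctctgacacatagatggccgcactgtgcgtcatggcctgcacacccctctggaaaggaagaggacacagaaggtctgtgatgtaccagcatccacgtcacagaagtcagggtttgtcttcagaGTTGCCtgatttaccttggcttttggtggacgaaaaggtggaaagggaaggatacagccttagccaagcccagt
Tekt4, chr17:25471340-25471639, plus strand: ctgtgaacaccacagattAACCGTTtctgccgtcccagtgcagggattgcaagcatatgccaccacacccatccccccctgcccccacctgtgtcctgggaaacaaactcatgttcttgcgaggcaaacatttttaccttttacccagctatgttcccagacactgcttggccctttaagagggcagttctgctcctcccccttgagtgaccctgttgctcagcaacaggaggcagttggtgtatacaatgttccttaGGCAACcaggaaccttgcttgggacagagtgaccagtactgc
Rfx1, chr8:84066586-84066885, plus strand: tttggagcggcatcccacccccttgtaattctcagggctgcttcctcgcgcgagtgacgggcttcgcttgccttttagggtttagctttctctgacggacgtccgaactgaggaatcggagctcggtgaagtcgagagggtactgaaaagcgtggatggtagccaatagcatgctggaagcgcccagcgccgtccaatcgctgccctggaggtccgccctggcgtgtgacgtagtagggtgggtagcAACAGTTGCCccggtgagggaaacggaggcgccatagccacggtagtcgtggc
Dnah6, chr6:73221582-73221881, minus strand: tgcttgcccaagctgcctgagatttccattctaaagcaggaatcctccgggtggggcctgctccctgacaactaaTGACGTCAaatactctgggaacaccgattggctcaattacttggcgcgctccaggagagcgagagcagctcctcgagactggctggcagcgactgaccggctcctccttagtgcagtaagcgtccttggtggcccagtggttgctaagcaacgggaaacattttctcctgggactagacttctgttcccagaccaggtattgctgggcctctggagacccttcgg
The windows of Odf3, Lrrc72, Tekt4 and Rfx1 hold 1 RFX half-site each, with a KO log2 fold change of -1.71 for Tekt4 and -1.02 for Rfx1 and no counts in KO for the others. The window of Dnah6 holds a cAMP response element and no RFX half-site. A match is a description of these letters and not a binding site.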

How the data were processed

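Per the labels' protocols, Trizol RNA of whole testis went into TruSeq libraries of stranded total RNA. The files hold the read count per gene for 24682 gene symbols, as deposited by the authors, with no scaling. HISAT2 2.1.0, HTSeq, DESeq2 and mm10 are named in the submitters' processing notes, with no role given, and the annotation and strand setting are not stated there. Overlapping genes and near-identical copies are therefore uncertain. The 12 files of both sets hold 10 distinct libraries, since a pair of files in each set is identical and was counted as 1 sample, and in 10 of the 12 the heading names another sample than the record. The planned group sizes of the labels (3 against 3) thus became 2 against 3 and 3 against 2.

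The 10 libraries were fitted together with edgeR 4.0.16 in R 4.3.3 (filterByExpr by group, trimmed mean of M-values, quasi-likelihood F test, two-sided, Benjamini-Hochberg adjusted p under 0.05 over 16930 genes). Each SE is the size of the log2 change over the root of its F statistic. Intervals are 95%. Counts at or below 3 are given as bounds or with a counting interval, which covers counting error only. On simulated data with known differences of effects over 16930 genes, 50 of 50 and 49 of 50 genes were recovered at a log2 of -2 and 2, and 38 of 50 and 42 of 50 at -1 and 1. Of 16730 unchanged genes 9 were called. The simulated libraries varied independently around the same mean in all groups, apart from changes planted in KO at genes above a mean log2 CPM of 1. They held no TGdel effect, no difference between the sets and no grading of the TGdel libraries. The simulation checks the fit and does not give the error rates of these data.

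The alternatives were other scaling, no filter on low counts, DESeq2 1.42.0, limma 3.58.1 with voom, a replicate block, thinned libraries, Rn45s left out, other sets of libraries and each library left out in turn. Named genes are Nkapl and Sox30, then, among genes at a mean log2 CPM of at least 1, the 8 largest called differences each way. At the same level come the 8 largest changes shared by both alleles and the 6 genes changed in KO and nearest to no change in TGdel. From each of 15 gene lists and 7 marker lists the 2 members of smallest p in KO were added, called or not. The libraries compared, the members and the lists were chosen with earlier results of these data known. Other list members named in the text were picked after their values were seen. Gene coordinates are from the RefSeq annotation of GRCm38.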

Additional observations from a re-analysis of the deposited data

Results flagged for a closer look

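These genes stand here because the effects of both alleles differ by the test of the difference itself (adjusted p under 0.05, edgeR quasi-likelihood test). The log2 difference of effects, Nkapl KO minus TGdel, was -0.494 for Nkapl, -1.18 for Acap1 and -1.06 for Prom1. It was 1.63 for Necab1, 1.61 for Arl15, 1.52 for H2-Q10, 1.49 for Tmem151b, 1.41 for Endog and 1.41 for Pappa. It was 1.31 for Helt, 1.28 for Dlk1, 1.11 for Alkbh3os1, 1.07 for Prss12 and 0.98 for Shisa8.

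For genes with no count in KO the fold fall in KO, over the fold fall in TGdel, is a lower bound. It was at least 92.9 for Smcp, 44.9 for Galntl5, 40.9 for Spata45, 40.6 for Adam26a, 38.7 for Odf3, 38 for Lrrc72 and 26.6 for Txndc8. For Gapdhs, with 1 count in KO, the ratio of folds was 386 and is uncertain. The TGdel fold is itself an average over libraries that differ, since TGdel 1 was the lowest and TGdel 3 the highest for all 8 of these genes. Without the 3 disputed libraries the difference was still called for Arl15, Spata45, Odf3, Lrrc72 and Gapdhs.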

How the results depend on the processing

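The counts of called genes depend on which libraries enter and on the spread that the fit assumes. Without the 3 disputed libraries 123 genes differed between the alleles and 4168 were called in KO, and the median TGdel effect of the genes lost in KO was -1.54. Without WT 2 of the TGdel set and TGdel 3, an alternative chosen after seeing the data, 1109 genes differed, 129 differences were bounded within 1 log2 unit and the median was -1.47. Grouping by file record called 0 genes in KO, 0 in TGdel, 0 under both and 0 differences with edgeR, with 984, 196 and 144 at an unadjusted p under 0.05 in KO, TGdel and the difference. The log2 difference of Sox30, not called, was then 0.0913, against -0.18. With all 15 testis libraries in the fit, 52 differences, 3351 KO calls, 425 TGdel calls, 216 shared calls and 33 bounded differences were found. The TGdel set fitted alone gave 200 calls. With no filter on low counts the correlation across genes was 0.33. The cause of these shifts was not tested.

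Leaving out 1 library at a time gave 19 to 3313 differences, 3346 to 5575 KO calls, 205 to 1809 TGdel calls, 158 to 1182 shared calls and 47 to 107 bounded differences. The correlation then ran from 0.44 to 0.72 and the median TGdel effect from -1.36 to -0.74. Same-numbered libraries deviated from their group means with correlations of 0.0444, 0.0219, -0.0446 and -0.0484. These cannot tell whether replicate numbers pair the libraries. KO and the WT of the TGdel set hold 2 libraries each, whose deviations from their mean are equal and opposite. With the replicate number as a block within set 0 genes differed (2676 at an unadjusted p under 0.05, and 1997, 2073 and 1705 adjusted by edgeR without the block, DESeq2 and limma-voom). The replicate block gave 3544 KO calls, 219 TGdel calls, 193 shared calls and a median TGdel effect of -1.56. Over 90 values of named genes and 21 alternatives, 1560 of 1890 values kept direction and call, 314 kept their direction but not the call and 15 gained a call. Most of these values are KO fold changes, and the differences of effects were less stable. With the replicate block 4 named differences kept their call state and 28 lost the call, against 49 and 1 of the KO fold changes. With all 15 testis libraries these were 6 and 26, against 47 and 3. Without WT 3 of the Nkapl set 23 differences kept their call state and 9 lost the call.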

Other observations

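X-linked genes, those lower in KO among them, were seldom called in TGdel. Of the 1295 genes lower in KO by a log2 of at least 1, 87 are X-linked. Their median log2 fold change was -5.77 in KO (-4.45 with the 28 genes without a KO count at their bound) and -0.81 in TGdel, and 6 of them (6.90%) were called lower in TGdel. For the 1157 autosomal genes of the set the medians were -2.93 in KO (-2.84 with 117 such genes at their bound) and -1.08 in TGdel, and 449 (38.8%) were called lower in TGdel. The X-linked genes were also at a lower level, a median log2 CPM of 0.40 against 1.30, with a larger median standard error in TGdel, 0.53 against 0.41. Below 0 in TGdel were 83 of the 87 X-linked genes and 1087 of the 1157 autosomal ones. Over all genes tested 6 of 695 X-linked genes (0.863%) and 848 of 15804 autosomal genes (5.37%) were lower in TGdel. Called higher there were 6 and 590. Few TGdel calls were thus seen on the X as a whole and are no trait of the genes lower in KO. Whether the X chromosome differs between the alleles was not tested.

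In the sorted wild-type germ cells of the series, genes lower under both alleles had a median log2 ratio of round spermatids over pachytene spermatocytes of 0.82, and 78.1% of them were higher in spermatids. That share was 73.4% for all genes lower in KO, 72.5% for all lower in TGdel and 74.9% for those with a negative difference. It is thus not particular to the shared genes. Genes higher under both had a median of -1.23 and 5.14% were higher in spermatids, while over all genes tested the median was -0.25 and the share 35.1%. The 140 genes lower in TGdel without a fall in KO had a median of -0.09 and a share of 43.6%, between those of all genes and of the genes lower under both.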
